A study of Mus musculus with 6 samples.

Results

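Genes of the unfolded protein response and of protein folding in the endoplasmic reticulum (ER) were examined in mouse cortical bone treated with parathyroid hormone (PTH). The set was a list of 35 gene symbols, and members were found by an exact match of the symbol column of the array table. Of the 35 genes, 29 had a probe under that symbol among 31508 symbols on the array, and 28 were above background often enough to be tested, of 11979 genes tested in all. Their 29 symbols covered 54 probes, of which 40 were tested.

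The bone came from C57BL6 mice, whose age is 3 months in the sample labels. Tibia and femur were cleaned of muscle and cut below the growth plates, the marrow was flushed out, and surface cells were digested with collagenase and trypsin, which left tubes of cortical bone with osteocytes in their matrix. Tubes were cultured for 24 hours either with 250 nM PTH 1-34, the active N-terminal fragment of the hormone (PTH), or without it (control). Each RNA preparation pooled the bones of several mice and was read on 1 Illumina bead array of 45281 probes, which gave 3 control and 3 PTH arrays. Nothing in the labels ties the 3 preparations of a group to separate days or cultures, so p-values measure the spread between these preparations.

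Proteins that enter the secretory pathway fold in the lumen of the ER with the help of chaperones and disulfide isomerases, and those that fail are returned to the cytosol for degradation. When unfolded protein builds up, 3 sensors in the ER membrane respond. IRE1 (*Ern1*) splices the mRNA of *Xbp1*, ATF6 is cut to release a transcription factor, and PERK (*Eif2ak3*) phosphorylates the initiation factor eIF2 alpha, which slows translation overall while allowing that of ATF4. XBP1 and ATF6 act on chaperone and degradation genes, and ATF4 acts on genes of amino acid supply, stress and feedback such as *Trib3*, *Ddit3* and *Asns*. Matrix-forming bone cells secrete large amounts of type I collagen and carry this machinery at high levels. ATF4 also responds to other kinases of eIF2 alpha, and its targets are therefore often called the integrated stress response.

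The DNA elements behind these arms were read from the RefSeq promoters of assembly GRCm38.p6, in the 250 bases before the annotated start of transcription, for the 31 members with an entry. *Sec61a1*, *Hyou1*, *Creb3l1* and *Atf6* had none. The promoter of *Hspa5* is shown whole because it is the classical reporter of the response and *Hspa5* had the largest positive change among the members. It lies at chr2:34771840-34772089 on the plus strand, with the exact match to the ER stress response element in capitals. Looser matches to the element were not searched or marked, so the promoter may hold further copies.
Hspa5: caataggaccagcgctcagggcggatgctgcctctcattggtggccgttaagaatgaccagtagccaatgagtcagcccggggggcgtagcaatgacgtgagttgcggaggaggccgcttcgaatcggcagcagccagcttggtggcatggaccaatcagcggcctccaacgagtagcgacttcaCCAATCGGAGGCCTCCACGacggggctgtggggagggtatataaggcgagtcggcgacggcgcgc

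The ER stress response element, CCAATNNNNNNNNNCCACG searched on both strands, was present in 37 of 32851 promoters, or 0.113%. It was found in 8 members, which were *Hspa5*, *Calr*, *Hsp90b1*, *Canx*, *Pdia6*, *Dnajc3*, *Creld2* and *Syvn1*. A second form, ATTGGNCCACG, was present in 0.0304% of promoters and in 1 member, *Herpud1*. The elements of 4 members tested on the array are shown with 20 bases on either side, each 5′ to 3′ in the direction of its gene, with the element in capitals.
Dnajc3 (chr14:118937807-118937865, plus strand): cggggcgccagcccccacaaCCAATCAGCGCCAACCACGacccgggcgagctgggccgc
Creld2 (chr15:88819500-88819558, plus strand): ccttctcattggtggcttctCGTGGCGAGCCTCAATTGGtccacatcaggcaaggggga
Calr (chr8:84847055-84847113, minus strand): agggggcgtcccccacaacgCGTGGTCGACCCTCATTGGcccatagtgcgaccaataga
Herpud1, second form (chr8:94386357-94386407, plus strand): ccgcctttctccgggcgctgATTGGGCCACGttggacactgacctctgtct

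For ATF4, the composite site bound together with C/EBP proteins, TGATGCAA on either strand, was present in 260 promoters, or 0.791%. It was found in 2 members, *Chac1* and *Herpud1*, and, counting *Chac1*, in 9 of the 41 genes of the PERK-ATF4 arm that had a promoter entry. The windows of *Chac1* and of the 3 arm genes outside the set that passed the test below are shown, with the site in capitals. In *Herpud1* the composite site and the ER stress element did not overlap.
Atf3 (chr1:191183416-191183463, minus strand): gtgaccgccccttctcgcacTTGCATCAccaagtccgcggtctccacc
Fgf21 (chr7:45615602-45615649, minus strand): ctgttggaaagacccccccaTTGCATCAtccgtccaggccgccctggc
Nupr1 (chr7:126625553-126625600, minus strand): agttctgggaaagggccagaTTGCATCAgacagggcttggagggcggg
Chac1 (chr2:119351029-119351076, plus strand): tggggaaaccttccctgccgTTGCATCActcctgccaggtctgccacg

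PTH acts in bone largely through cAMP, and the full cAMP response element TGACGTCA was therefore searched as well. It was present in 1.55% of promoters and in 1 member, *Ppp1r15a*, at chr7:45526269-45526300 on the minus strand.
Ppp1r15a: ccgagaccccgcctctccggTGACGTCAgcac
A match is a string of letters in a promoter, and no binding was measured in these samples.

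Of the 28 members tested, 1 was called changed with PTH. *Trib3*, a pseudokinase that feeds back on ATF4 and AKT signalling, fell 1.77-fold. No member was called higher with PTH. A gene was called at an adjusted p under 0.05 (limma, Benjamini-Hochberg over all 16214 probes tested) with a fold change of at least 1.5, and by this rule 1.73% of all 11979 genes were called, 0.685% higher and 1.04% lower with PTH. The single call was 1 of 28 members, and no reading of the set as a whole is drawn from it. The median change of the members was -0.01 on the log2 scale, against 0.01 over all genes tested. By sign 12 members were above 0 and 16 below, and for 17 members the 95% interval of the change lay within 1.5-fold in either direction.

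**Figure D1:**
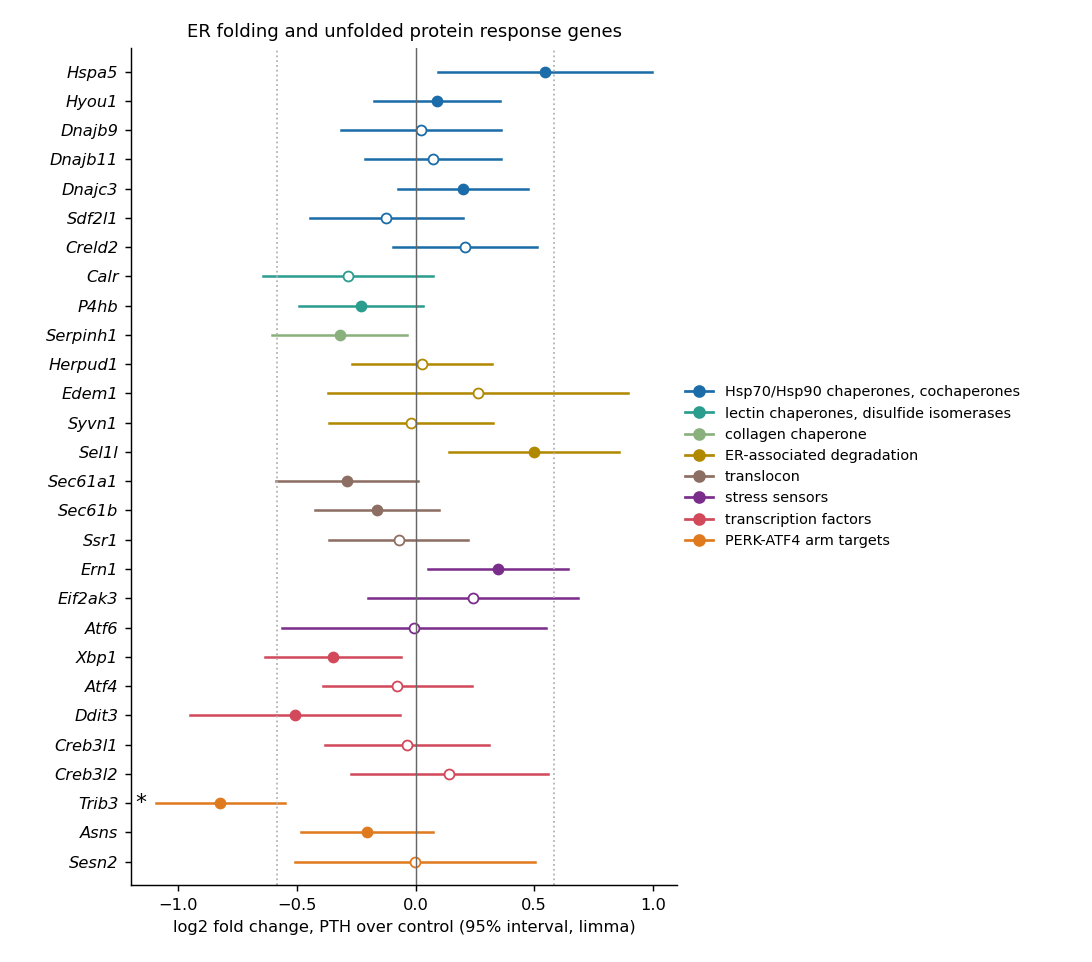
Log2 fold change of PTH over control for the 28 members tested, each by its brightest probe, with the 95% interval from limma and coloured by role. Filled points are the 13 members whose PTH and control arrays did not overlap, dotted lines mark 1.5-fold, and the asterisk marks *Trib3*, the only member called, at -0.82.

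*Trib3* had a normalised log2 signal of 10.56, 10.45 and 10.41 on control arrays 1 to 3 and of 9.72, 9.64 and 9.61 on PTH arrays 1 to 3, the order used throughout. All PTH arrays lay below all control arrays, by far more than the spread within either group (SD 0.08 and 0.06, n = 3). The log2 fold change was -0.82 ± 0.12 (SE), with a 95% interval of -1.10 to -0.55 and an adjusted p of 0.019. A second, dimmer probe gave -0.65 without overlap (adjusted p = 0.176), and the dimmest gave -0.64 with overlapping groups (adjusted p = 0.347). The value kept its sign when each of the 6 arrays was left out in turn, between -0.86 and -0.78, but the adjusted p then lay between 0.052 and 0.097, so that the call was lost in all 6 of these fits. The call was also lost with the array number as a block in the fit (adjusted p = 0.066), though the labels do not say whether the numbers pair the samples. Scaling the arrays by their medians in place of quantile normalization ended the call too (-0.66, adjusted p = 0.510). Under that scaling the median of all genes stood at 0.12, and the change of *Trib3* relative to it was -0.77.

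The groups did not overlap for 13 of the 28 members (46.4%), 5 higher and 8 lower with PTH. Over all genes tested this was the case for 21.9%, 11.1% higher and 10.8% lower. The 5 higher members were *Hspa5*, *Hyou1*, *Dnajc3*, *Ern1* and *Sel1l*, and the 8 lower members were *P4hb*, *Serpinh1*, *Xbp1*, *Ddit3*, *Trib3*, *Asns*, *Sec61a1* and *Sec61b*. These counts depended on the scaling, since under median scaling 3 of the 28 members and 11.4% of all genes did not overlap. Before adjustment 7 members had p under 0.05, against 1785, or 14.9%, of all genes. For a single gene the exact two-sided permutation test with 3 arrays in each group cannot give a p below 0.1.

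**Figure D2:**
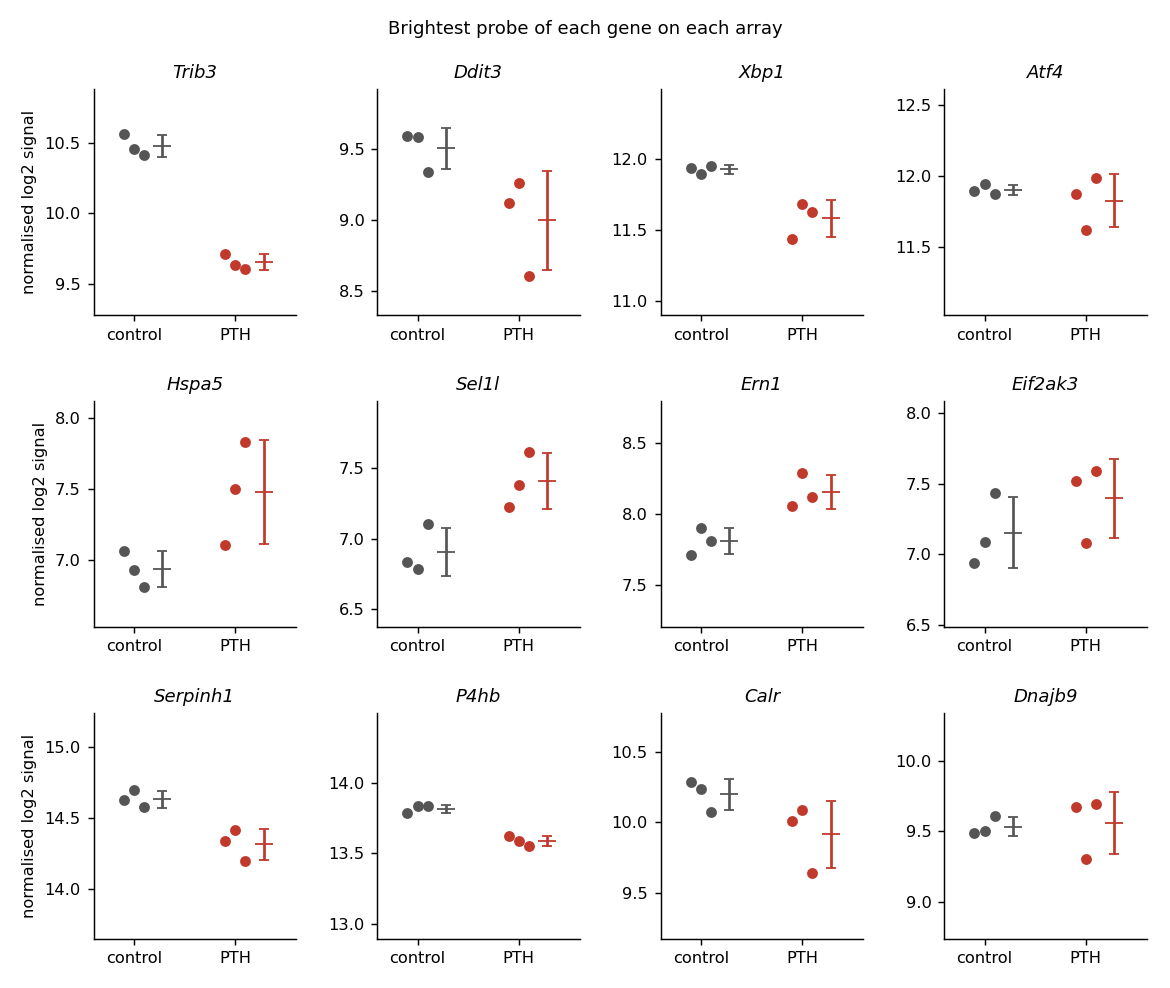
Normalised log2 signal of 12 members on each of the 3 control (grey) and 3 PTH (red) arrays, with the mean and SD beside the points and the same span of 1.6 log2 units on every axis. *Trib3*, *Xbp1* and *P4hb* show tight groups that do not overlap, while the PTH arrays of *Hspa5* spread from 7.10 to 7.83 next to control arrays at 6.81 to 7.06.

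Among the sensors, *Ern1* had the largest change. Its log2 signal was 7.71, 7.90 and 7.81 on control arrays and 8.06, 8.29 and 8.12 on PTH arrays. The PTH arrays all lay above the control arrays, at a log2 fold change of 0.35 ± 0.13 (SE) that did not pass the test (adjusted p = 0.259). The other 2 probes of *Ern1* were below background on all arrays. *Eif2ak3*, the kinase PERK, had 6.94, 7.09 and 7.43 on control arrays and 7.52, 7.08 and 7.59 on PTH arrays. PTH array 2 fell among the controls, and the difference was 0.24 ± 0.19 (SE; adjusted p = 0.628). *Atf6* was barely measured, with 4.76, 5.28 and 4.88 on control arrays and 4.47, 5.28 and 5.17 on PTH arrays. It was above background on 1 control array and 2 PTH arrays, and its 95% interval, -0.56 to 0.55, allows nearly a 1.5-fold change either way.

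None of the 5 transcription factors passed the test, and *Xbp1* and *Ddit3* were the 2 whose groups did not overlap. *Xbp1* had 11.94, 11.89 and 11.95 on control arrays and 11.44, 11.68 and 11.63 on PTH arrays. The groups were clearly apart, at -0.35 ± 0.12 (SE), but the change did not pass the test (adjusted p = 0.246). The array has 1 probe for *Xbp1*, and whether it reads the spliced form, the unspliced form or both is not known from the table. *Ddit3*, which encodes the proapoptotic factor CHOP, had 9.59, 9.59 and 9.34 on control arrays and 9.12, 9.26 and 8.60 on PTH arrays. A second probe of *Ddit3* read 8.36, 8.14 and 8.53 against 7.99, 7.52 and 7.71. On both probes every PTH array was below every control array, with log2 fold changes of -0.51 ± 0.19 and -0.60 ± 0.17 (SE). Neither passed the test, with adjusted p of 0.271 and 0.150.

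*Atf4* itself, whose protein is set mainly by translation, had 11.90, 11.94 and 11.87 on control arrays and 11.87, 11.62 and 11.99 on PTH arrays. The groups overlapped, and its 2 probes gave -0.08 and -0.04, with a 95% interval of -0.39 to 0.24 for the brighter. *Creb3l1*, or OASIS, a membrane-bound factor that acts on collagen genes in osteoblasts, had 7.15, 7.11 and 7.03 on control arrays and 7.32, 6.99 and 6.87 on PTH arrays. Its PTH arrays straddled the controls, at -0.04 ± 0.15 (SE; adjusted p = 0.942). Its relative *Creb3l2* gave 0.14 and 0.38 on 2 probes, both with overlapping groups.

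The other targets of the PERK-ATF4 arm did not pass the test. *Asns*, asparagine synthetase, had 12.36, 12.34 and 12.53 on control arrays and 12.14, 12.25 and 12.22 on PTH arrays. The PTH arrays were all lower, at -0.21 ± 0.12 (SE; adjusted p = 0.497). The 2 further probes of *Asns* gave -0.34, without overlap, and -0.04, with overlap. *Sesn2*, a stress-induced regulator of mTORC1, stood at -0.0026 with a 95% interval of -0.51 to 0.50. *Ppp1r15a*, the phosphatase subunit GADD34 that reverses the phosphorylation of eIF2 alpha, and *Chac1*, a glutathione-degrading enzyme, had no probe under their current symbols. Under an older name of *Ppp1r15a*, *Myd116*, a probe read 8.24, 8.41 and 8.34 on control arrays and 7.84, 7.96 and 7.91 on PTH arrays. The groups did not overlap, at -0.43 ± 0.12 (SE; adjusted p = 0.147). Under an older name of *Chac1*, *1810008K03Rik*, the change was -0.19 ± 0.12 (SE; adjusted p = 0.534), also without overlap.

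Lumenal chaperones of the Hsp70 and Hsp90 families and their cochaperones numbered 8, of which 7 were tested, 6 with a change above 0 and 1 below. None passed the test. *Hspa5*, the Hsp70 chaperone BiP that also holds the sensors inactive, had 7.06, 6.93 and 6.81 on control arrays and 7.10, 7.50 and 7.83 on PTH arrays. PTH array 1 lay just above the highest control while PTH array 3 lay well above it, and the log2 fold change was 0.55 ± 0.19 (SE), or 1.46-fold, with an adjusted p of 0.248. Without PTH array 3 it was 0.37, and over all 6 fits with 1 array left out it ranged up to 0.73. The probe was dim, and under quantile normalization without background correction the change of *Hspa5* was 0.34 (adjusted p = 0.094, limma). Under that setting *Sel1l* and *Ern1*, also read by dim probes, stood at 0.30 and 0.25. The position of the single *Hspa5* probe in the transcript is not given in the table.

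*Dnajc3*, the BiP cochaperone P58IPK, had 9.06, 9.22 and 9.14 on control arrays and 9.40, 9.28 and 9.33 on PTH arrays. The PTH arrays were all higher by a small margin, at 0.20 ± 0.12 (SE; adjusted p = 0.505). *Hyou1*, a nucleotide exchange factor for BiP, was at 0.09 with groups that barely cleared each other, the highest control at 7.13 and the lowest PTH array also at 7.13. *Creld2*, a secreted disulfide isomerase-like protein, gave 0.21 and 0.12 on its 2 probes, *Dnajb11* 0.07, *Dnajb9* 0.02 and 0.21, and *Sdf2l1* -0.12, all with overlapping groups. *Hsp90b1*, the ER Hsp90, had no probe under its symbol.

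Lectin chaperones and disulfide isomerases were thinly covered, since 2 of 6 were tested. *P4hb*, protein disulfide isomerase and the beta subunit of the collagen prolyl 4-hydroxylase, had 13.78, 13.83 and 13.83 on control arrays and 13.62, 13.59 and 13.55 on PTH arrays. The groups did not overlap, at -0.23 ± 0.11 (SE; adjusted p = 0.403). *Calr*, calreticulin, had 10.28, 10.23 and 10.07 on control arrays and 10.01, 10.09 and 9.64 on PTH arrays. PTH array 2 fell within the range of the controls, at -0.28 ± 0.15 (SE; adjusted p = 0.457). The only probe of *Canx*, calnexin, was below background on all 6 arrays. Under older names, *Pdia3* (*Grp58*) stood at 0.07, *Pdia4* (*Cai*) at -0.11, and *Pdia6* at 0.52 on 1 dim probe (*1700015E05Rik*) and -0.09 on another (*Txndc7*), none past the test.

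*Serpinh1*, or HSP47, the collagen-specific chaperone, had 14.63, 14.70 and 14.58 on control arrays and 14.33, 14.41 and 14.20 on PTH arrays. The PTH arrays were all lower, at -0.32 ± 0.12 (SE) with a 95% interval of -0.60 to -0.04, and the change did not pass the test (adjusted p = 0.277). A second probe gave -0.24 with overlapping groups. *Col1a1*, the main cargo of HSP47, gave -0.54 (adjusted p = 0.080) and *Col1a2* gave 0.01 (adjusted p = 0.971) in the same fit.

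In ER-associated degradation, *Sel1l*, the adaptor of the HRD1 ubiquitin ligase, had 6.84, 6.79 and 7.10 on control arrays and 7.23, 7.38 and 7.62 on PTH arrays. All PTH arrays were higher, at 0.50 ± 0.15 (SE), which did not pass the test (adjusted p = 0.190). The ligase itself, *Syvn1*, stood at -0.02 and the mannosidase-like *Edem1* at 0.26, both with overlap. The 2 probes of *Herpud1*, a membrane component of the ligase complex, disagreed. The brighter probe gave 0.03 with overlap, while the other read 11.00, 10.90 and 10.90 on control arrays and 10.68, 10.61 and 10.65 on PTH arrays. That second probe did not overlap, at -0.29 ± 0.11 (SE; adjusted p = 0.300).

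The translocon genes were all below 0 by their brightest probes. *Sec61a1*, the channel subunit, had 10.10, 10.07 and 10.24 on control arrays and 9.99, 9.83 and 9.72 on PTH arrays. The groups did not overlap, at -0.29 ± 0.13 (SE; adjusted p = 0.359). *Sec61b* gave -0.16 without overlap on its brighter probe and 0.11 with overlap on the other, and *Ssr1* gave -0.07. In all, 10 members had more than 1 probe tested, and the probes shared a sign for 8, with *Herpud1* and *Sec61b* as the exceptions.

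The 5 members that had an ER stress response element and were tested took both signs, with 3 above 0 (*Hspa5*, *Dnajc3*, *Creld2*) and 2 below (*Calr*, *Syvn1*). The sequences printed above for *Dnajc3* and *Calr* thus carry the same element next to changes of 0.20 and -0.28. None of the 5 passed the test.

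Genes of the same pathways outside the set were counted from lists, which were chosen with earlier results of these data known. The shares of all genes given beside these lists are therefore a description and no test of a list. Of 34 other PERK-ATF4 arm genes tested, 3 were called lower and none higher, beside 1.04% of all genes called lower. The 3 were *Atf3*, a stress-induced repressor of the ATF family, *Fgf21*, a secreted hormone of the integrated stress response, and *Nupr1*, a stress-induced chromatin protein. *Atf3* had 6.72, 6.29 and 6.29 on control arrays and 5.37, 5.31 and 5.59 on PTH arrays. Its groups were far apart, a 2.01-fold fall at -1.01 ± 0.16 (SE; adjusted p = 0.028). *Fgf21* had 6.53, 6.11 and 6.51 on control arrays and 5.39, 5.40 and 5.39 on PTH arrays, a 1.99-fold fall at -0.99 ± 0.15 (SE; adjusted p = 0.021). *Nupr1* had 12.92, 13.12 and 13.12 on control arrays and 12.46, 12.39 and 12.33 on PTH arrays, a 1.58-fold fall at -0.66 ± 0.12 (SE; adjusted p = 0.048). *Atf3* and *Fgf21* were close to background, where the size of a fold change depends on the background correction, and without that correction they stood at -0.40 and -0.39.

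These calls were also sensitive to single arrays. With 1 array left out, the adjusted p lay between 0.061 and 0.101 for *Atf3*, between 0.026 and 0.097 for *Fgf21* and between 0.102 and 0.171 for *Nupr1*, and the only call kept was *Fgf21* without control array 2. Under median scaling none of the 3 was called (adjusted p of 0.116 to 0.867), nor with the array number as a block (0.070 to 0.118). Across the 34 genes the groups did not overlap for 11 lower and 1 higher, beside 10.8% and 11.1% of all genes, and under median scaling for 5 lower and 1 higher. Before adjustment 11 had p under 0.05, beside 14.9% of all genes. The median change was -0.11, against 0.01 for all genes. Of the genes that missed the test, and chosen here after their values were seen, *Slc7a3*, a cationic amino acid transporter, gave -0.69 (adjusted p = 0.053) and *Gdf15*, a stress-induced cytokine, gave -0.72 (adjusted p = 0.082). *Ddit4*, a stress-induced inhibitor of mTORC1, was the 1 gene without overlap in the other direction, at 0.40 (adjusted p = 0.259). The transfer RNA synthetases of the arm, a large block of ATF4 targets, lay between -0.36 (*Eprs*) and 0.16 (*Mars*), all with overlap.

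**Figure D3:**
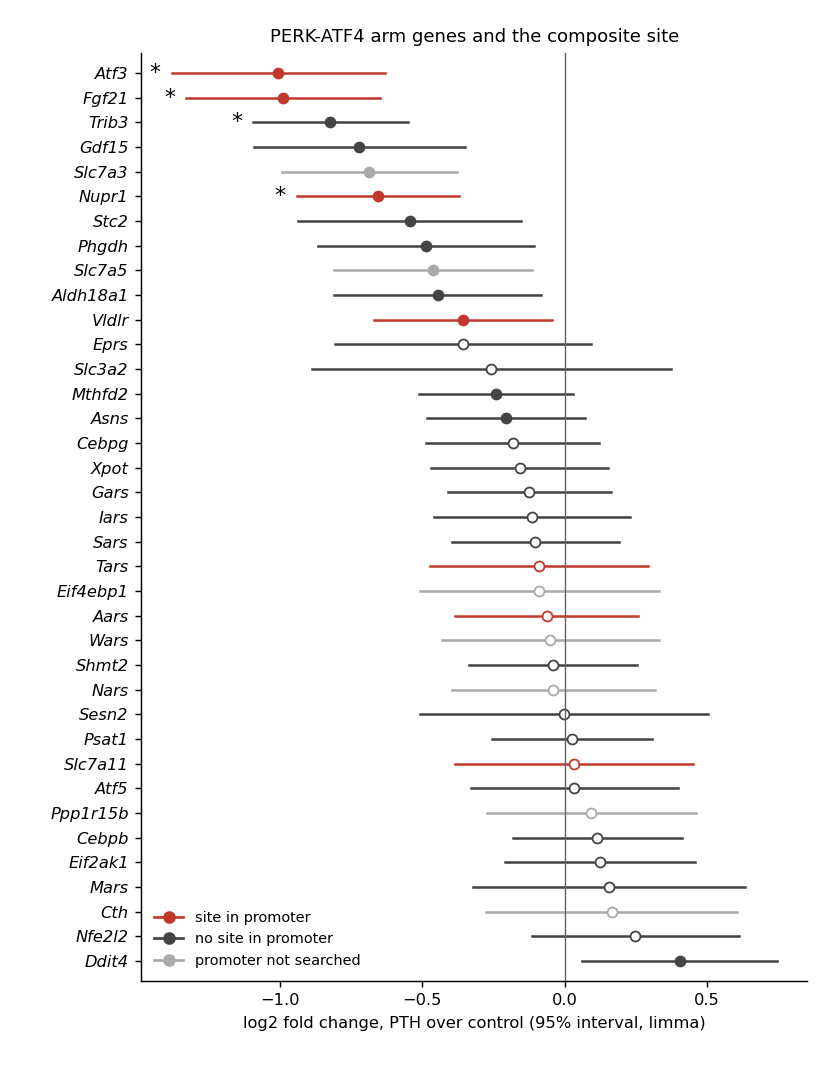
Log2 fold change of PTH over control with its 95% interval for the 37 genes of the PERK-ATF4 arm tested, 3 of them members, coloured by whether the promoter held the composite site TGATGCAA. Filled points did not overlap between groups and asterisks mark the 4 genes called, *Atf3*, *Fgf21*, *Trib3* and *Nupr1*, all lower with PTH.

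Sites in the promoters were set beside these changes. Of the 7 arm genes tested with a composite site, 6 were below 0, 3 were called, and the median was -0.36. Of the 23 without this exact string in the bases searched, 16 were below 0, 1 was called (*Trib3*), and the median was -0.12. A variant of the site, or one further from the start, was not counted, so these genes may still carry one. The 7 remaining genes had no promoter entry. Of the uncalled genes with the site, *Vldlr* was at -0.36 without overlap, and *Tars*, *Aars* and *Slc7a11* were between -0.09 and 0.03 with overlapping groups. The difference between these lists was not tested.

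No gene was called in the other lists of the secretory pathway by limma, namely 21 other ER folding genes, 12 other ER-associated degradation genes, 21 other translocon and signal sequence genes, 18 ER export genes and 11 other stress signalling genes. Before adjustment 1, 1, 1, 3 and 0 of them had p under 0.05, beside 14.9% of all genes. With 1.73% of all genes called, lists of 11 to 21 genes would hold few or no calls at that share. Where an alternative called any gene of these lists or of the other arm genes, that gene belonged to the PERK-ATF4 arm. None was called under median scaling or under the replicate block, and with 1 array left out the only call was *Fgf21* without control array 2. The smallest p in each list belonged to *Fkbp11*, an ER prolyl isomerase (-0.40, adjusted p = 0.175), *Rad23b*, a ubiquitin shuttle (-0.38, adjusted p = 0.281), *Srp54*, a signal recognition particle subunit (0.43, adjusted p = 0.333), *Tfg*, a protein of ER exit sites (-0.38, adjusted p = 0.216), and *Nfya*, a subunit of the CCAAT-binding factor NF-Y (-0.46, adjusted p = 0.373). Their medians lay between -0.05 and 0.04.

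**Figure D4:**
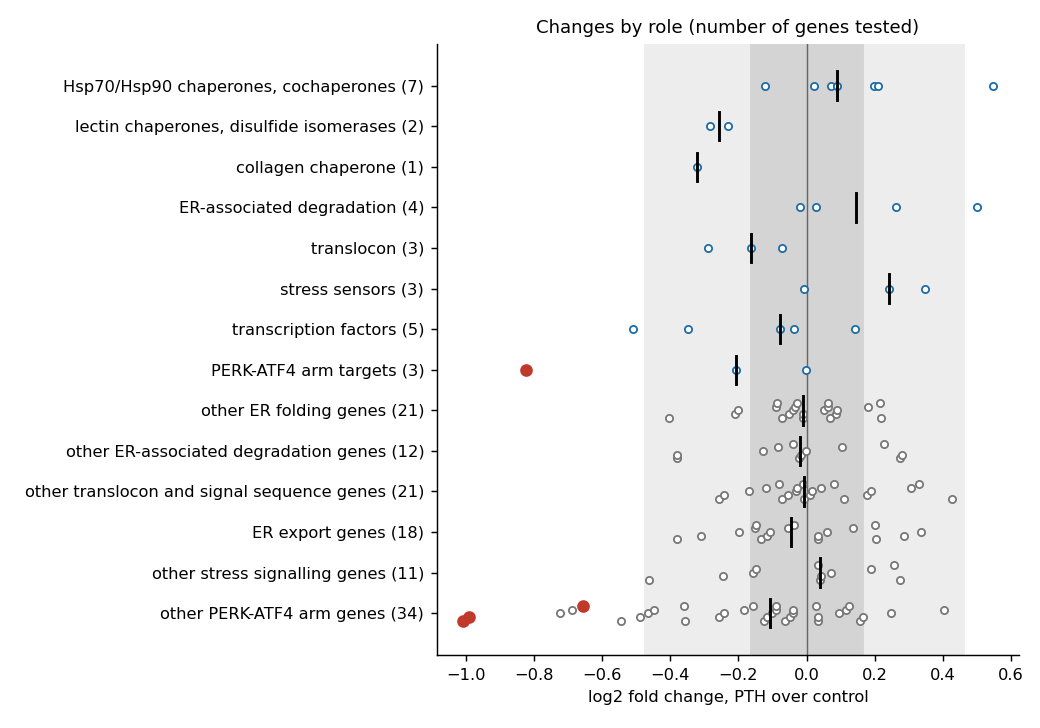
Log2 fold change of each gene tested, by role, for the members (blue) and for other genes of the same pathways (grey), with the number tested in brackets, a black bar at the median and called genes in red. Shading spans the 25th to 75th (dark, -0.16 to 0.17) and 5th to 95th (light, -0.48 to 0.46) percentiles of all genes tested, and the called genes lie in the PERK-ATF4 rows.

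RNA of several cell type markers differed between the groups in the same arrays, each gene read by its brightest probe. Among markers of osteocytes and osteoblasts 15 of 17 on the array were tested, *Dmp1*, *Mepe*, *Phex* and *Sost* included, and 4 were called lower (*Ibsp*, *Pthr1*, *Mepe*, *Sp7*), with the summed normalised signal falling from between 87381 and 92544 on control arrays to between 72160 and 75461 on PTH arrays. In the same list 11 genes were lower and 1 higher without overlap, beside 10.8% and 11.1% of all genes. *Dmp1* was at -1.21 and *Phex* at -0.88 without overlap, and *Sost* at -1.21 with overlap (adjusted p = 0.056, 0.076 and 0.150). *Gp38*, the early osteocyte marker podoplanin, was at 0.70 without overlap (adjusted p = 0.056), and *Spp1* and *Col1a2* were each at 0.01. Of 11 neutrophil and myeloid markers tested, 7 were called lower and the sum went from between 55757 and 56682 to between 35560 and 40269. Both red cell markers tested, the globins *Hba-a1* and *Hbb-b1*, were called lower, with the sum at 8521 to 9978 on control arrays and 2329 to 2606 on PTH arrays. Of 5 osteoclast markers tested, 3 were called higher (*Oscar*, *Acp5*, *Mmp9*). The sum over all 5 went from between 11881 and 13358 on control arrays to between 16117 and 20631 on PTH arrays. *Ctsk*, the brightest of the 5, was not called (0.36, adjusted p = 0.328). Of 4 cartilage markers tested 1 was called lower, with sums of 345 to 369 and 222 to 264.

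Plasma cells and B lymphocytes, which carry a large ER, had 4 of 13 markers tested and sums of 349 to 370 on control and 376 to 406 on PTH arrays. None was called by its brightest probe, but *Sdc1*, which encodes syndecan-1, was called higher on a dimmer probe (1.03, adjusted p = 0.027) and was 0.51 on the brighter without overlap (adjusted p = 0.154). Endothelial markers had 6 of 6 tested and none called, with sums of 1455 to 1598 and 1419 to 1458. Their median change was -0.33, and *Vwf* was the 1 without overlap, at -0.45 (adjusted p = 0.177). The other lists also held no call, fat markers having 2 of 4 tested with sums of 1812 to 2124 and 2074 to 2213, and mast cell and T lymphocyte markers 2 of 9 with 189 to 262 and 179 to 189. All 7 skeletal muscle markers were below the detection filter. In these bulk preparations fewer cells of a type and less RNA per cell cannot be told apart, and the part of these shifts in the changes of *Trib3*, *Atf3*, *Fgf21* and *Nupr1* was not tested.

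The median signal per array ranged from 111 to 129 for control and from 112 to 124 for PTH. Probes above background were 34.8%, 36.3% and 38.4% on control arrays 1 to 3 and 34.2%, 36.1% and 38.4% on PTH arrays 1 to 3. This share thus rose with the array number in both groups, and whether the numbers mark a shared batch was not tested. Rank correlations between arrays were 0.786 to 0.826 over all probes. With so few arrays precision is limited, and intervals such as those of *Edem1* (-0.37 to 0.90) and *Hspa5* (0.09 to 1.00) include changes of over 1.5-fold for individual members.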

How the data were processed

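The authors deposited a table of signal intensity per probe and array, on a linear scale without normalization or background subtraction, and a detection p-value from GenomeStudio beside each. Its version is not given in the sources used here. Signals were background corrected through the detection p-values, given an offset of 16, quantile normalized and taken to log2 with neqc (limma 3.58.1, R 4.3.3). Probes with a detection p under 0.05 on at least 3 of 6 arrays were tested with lmFit and eBayes, adjusted by Benjamini-Hochberg over all probes tested, and a gene was read by its brightest probe. An offset shrinks fold changes of dim probes. The procedure was tested on simulated data. No slide is named.

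Groups came from the sample titles. Members and lists were chosen with earlier results of these data known. Values on every array are given for called members, the sensors and 4 factors (*Xbp1*, *Atf4*, *Ddit3*, *Creb3l1*), and for others at choice. Of other lists, called genes and, without a call, the gene with the smallest p were named. Older symbols were matched only where RefSeq lists them for 1 gene, so *Tra1*, an older name of *Hsp90b1* and of another gene, was left out. Alternatives were other normalizations, offsets, filters, probe rules, thresholds, a replicate block and each array left out.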

Additional observations from a re-analysis of the deposited data

How the results depend on the processing

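*Trib3* was the 1 member called under cyclic loess, quantile normalization alone, an offset of 50, an unadjusted p, the mean of the probes, testing without the detection filter, and testing only probes with a detection p under 0.01 on every array. Under median scaling and under the replicate block 0 members were called, and with 1 array left out 0 in each of the 6 fits. The median change of the members was 0.087 under median scaling, where that of all genes was 0.116, and -0.053 to -0.015 with 1 array left out. Other pathway genes called were 3, and numbered 1 under quantile normalization alone, 5 with an offset of 50, 5 by unadjusted p, 0 under median scaling, 0 under the replicate block, and 0 to 1 with 1 array left out. With a detection p under 0.01 required on every array they were *Gdf15*, *Nupr1* and *Slc7a3*, and *Atf3* and *Fgf21* were not tested. Without the detection filter they were *Atf3* and *Fgf21*, and *Nupr1* had an adjusted p of 0.060. The calls over all genes fell from 207 to 44 under the block, 104 under median scaling, 140 under quantile normalization alone and 50 to 95 with 1 array left out, and were 622 by unadjusted p. Samples of the same number were correlated at 0.067, 0.064 and 0.273 in their deviations from the group means. Control 1 with PTH 2 stood at 0.073, and control 2 with PTH 1 at 0.07. Control 3 was at -0.134 with PTH 1 and with PTH 2, and PTH 3 was at -0.142 and -0.136 with controls 1 and 2. The number 3 arrays thus deviated alike. The labels do not say whether the numbers pair the samples, and the main fit did not treat them as pairs. Under the block the adjusted p was 0.066 for *Trib3*, 0.085 for *Atf3*, 0.070 for *Fgf21* and 0.118 for *Nupr1*, each at the same change as without it. The slide block could not be run, since no slide is named. The reasons for these shifts were not tested.

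Signs turned only for uncalled members near 0. Under median scaling *Atf4* was 0.065, *Atf6* 0.049, *Creb3l1* 0.064, *Sdf2l1* 0.019, *Sesn2* 0.108, *Ssr1* 0.038 and *Syvn1* 0.125, and relative to the median of all genes 6 of these 7 kept their sign, *Syvn1* excepted. *Atf6* was 0.0037 with an offset of 50 and 0.038 under cyclic loess, *Herpud1* -0.011 under cyclic loess and -0.130 by the mean of its probes, and *Sesn2* 0.0057 under quantile normalization alone, 0.0077 with an offset of 50 and 0.047 under cyclic loess. With 1 array left out the ranges were -0.158 to 0.025 for *Atf4*, -0.116 to 0.255 for *Atf6*, -0.167 to 0.058 for *Creb3l1*, -0.044 to 0.151 for *Dnajb9*, -0.021 to 0.096 for *Herpud1*, -0.191 to 0.240 for *Sesn2* and -0.141 to 0.046 for *Syvn1*. *Ddit3* and *Xbp1* had adjusted p of 0.048 and 0.043 under quantile normalization alone, at -0.44 and -0.34, short of the fold change minimum.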

Other observations

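Chaperones outside the ER were read in the same fit. Of 20 cytosolic and mitochondrial chaperones tested, 1 was called by limma, the small heat shock protein *Cryab*, which read 6.91, 7.13 and 7.56 on control arrays and 6.03, 5.78 and 6.21 on PTH arrays, a 2.29-fold fall (adjusted p = 0.031), beside 1.73% of all genes called. The median of this list was 0.11, with 4 genes higher and 2 lower without overlap, beside 11.1% and 10.8% of all genes. *Hspa8*, the constitutive cytosolic Hsp70, was named after its values were seen. It read 14.29, 14.25 and 14.16 on control arrays and 14.72, 14.76 and 14.76 on PTH arrays. These groups lay clearly apart, at 0.51 ± 0.11 (SE), but missed the test (adjusted p = 0.082). The dimmer probes of *Hspa8* gave 0.16 and 0.27 without overlap and 0.52 with overlap (adjusted p = 0.614, 0.323 and 0.348).

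The KDEL receptors, which return lumenal chaperones such as BiP to the ER, did not move alike, also noted after their values were seen. *Kdelr2* gave 0.34 (adjusted p = 0.325) and *Kdelr3* -0.20 (adjusted p = 0.490), both without overlap between groups.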
